A study of Mus musculus with 16 samples.

Results

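Ethanol added to nicotine drinking was examined by comparing the whole-brain transcriptomes of 4 NE mice with those of 4 NW mice, 8 of the 16 mice of the series, and the water controls were left out of the comparison. All were females of the inbred C57BL/6J strain, killed at postnatal day 45 in adolescence, and both groups had nicotine at 200 µg/ml in all of their drinking bottles for 22 h a day over 10 days. On days 7 to 10 the remaining hours were a drinking-in-the-dark session, in which one tube is offered in the dark phase. NE mice found 20% v/v ethanol in that tube and NW mice found water, for 2 h on 3 days and for 4 h on the last day. Ethanol and nicotine were both taken by free drinking, so the dose was set by each mouse. Earlier ethanol sessions and ethanol still present after the last one cannot be told apart in this design, because all 4 NE mice had both. Of 24062 genes in the count table, 15361 had enough reads in these 8 mice and were tested. The other 8 mice, WW with water only and Water-Ethanol with ethanol but no nicotine, served beside the results as the like comparison without nicotine. It shares no mouse with NE against NW. The paper reports that NE mice drank more ethanol in the last session than Water-Ethanol mice and had higher blood ethanol. The 2 comparisons therefore differ in ethanol intake as well as in nicotine, and these cannot be told apart.

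Ethanol acts on many membrane proteins of neurons, among them GABA-A receptors, which it enhances, and NMDA-type glutamate receptors, which it inhibits, and it is oxidized to acetaldehyde and acetate. Nicotine opens nicotinic acetylcholine receptors, cation channels made of alpha and beta subunits that desensitize on long exposure. Cells answer osmotic load by taking up small organic solutes, a programme run by the transcription factor NFAT5.

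The libraries of the 8 mice held 27100352 to 32880979 counted reads, and Pearson's r of log2 library-scaled counts between mice ranged from 0.992 to 0.997 across the genes tested. Defining markers of neurons, astrocytes, oligodendrocytes and microglia had reads in every mouse. One library stood apart. NW mouse 10 had summed counts of 10 cerebellar marker genes of 52393 against 81298 to 92265 in the other 7 mice, and of 9 pituitary marker genes of 425.9 against 5.81 to 15.1. Normalized counts of the ribosomal RNA precursor Rn45s were 403780, 219444, 1219292 and 124785 in NW mice 7, 8, 10 and 11 and 95910 to 133687 in NE. Values below are normalized counts, scaled by TMM factors to the mean library of the 8 mice, and lists of 4 values follow the order NW 7, 8, 10, 11 and NE 2, 3, 4, 5.

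No gene passed the test. With edgeR's quasi-likelihood test and Benjamini-Hochberg adjustment, 0 of 15361 genes (0%) reached the adjusted threshold of 0.05, and the smallest adjusted p was 0.134. At an unadjusted p under 0.05 there were 1830 genes (11.9%), 1071 higher in NE (6.97%) and 759 lower (4.94%). In 651 genes every NE mouse lay above every NW mouse (4.24%), and in 508 every NE mouse lay below (3.31%), while 50.7% of all genes had a log2 fold change above 0. Other tests made calls. DESeq2 called 93 of 12149 genes with an adjusted p (0.765%), edgeR's likelihood-ratio test called 106 (0.69%) and a quasi-likelihood fit of all 16 mice called 57 of 15592 (0.366%). The 3 lists shared 47 genes, 43 higher and 4 lower in NE. Without NW mouse 10 the main test again made 0 calls, with 2277 genes at an unadjusted p under 0.05. None of the genes named below rose or fell by the main test, and the words higher and lower describe group means. A log2 fold change, NE over NW, is followed by its standard error (SE) and by p-values from the quasi-likelihood test, with n = 4 mice in each group.

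The gene with the smallest p was Chd2, a chromatin remodelling helicase on chromosome 7 from 73426652 to 73541746. It stood at 2591, 2589, 2726 and 2489 in NW and at 3344, 3056, 3264 and 3148 in NE. All NE mice were above all NW mice, the log2 fold change was 0.30 (SE 0.046, adjusted p = 0.134), and adjusted p over the alternatives ranged from 6.2e-05 to 0.576. Its exons overlap those of 1810026B05Rik on the same strand, so reads of the shared part could belong to either. Tgfb3, which encodes a secreted transforming growth factor beta, had 489.8, 495.1, 457 and 528.4 in NW and 690.3, 629.2, 647.9 and 618.3 in NE, again without overlap (log2 fold change 0.39, SE 0.063, adjusted p = 0.134). The pro-protein convertase Furin, which cleaves precursors of growth factors of that family among others, was at 1242, 1177, 1187 and 1238 in NW and 1479, 1426, 1515 and 1364 in NE (log2 fold change 0.26, SE 0.049, adjusted p = 0.165).

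Kcnj13, an inward rectifier potassium channel (Kir7.1) known from choroid plexus epithelium, had 206.2, 212.2, 177.5 and 208.3 normalized counts in NW and 276.7, 277.9, 311.3 and 288.5 in NE. The groups did not overlap and the log2 fold change was 0.52 (SE 0.085, adjusted p = 0.134). Trpv4, a calcium-permeable channel that opens on cell swelling, had 135.5, 119.2, 110.9 and 125.7 in NW and 167.5, 189.0, 203.5 and 178.3 in NE (log2 fold change 0.58, SE 0.103, adjusted p = 0.134). Summed counts of 11 choroid plexus markers were 32151 to 47312 in NW and 39137 to 43404 in NE. The lowest value was that of NW mouse 10, and the other NW mice had 42777 to 47312. Of these genes 7 had a log2 fold change above 0, Kcnj13 being the one at an unadjusted p under 0.05. The median log2 fold change of the list was 0.04 in the main fit and -0.11 without NW mouse 10. The rest of the 10 genes with the smallest p among those higher in NE were regulators of transcription, transport or protein turnover. They were Bbx and Rfx7, which encode DNA-binding proteins, the zinc finger genes Zfp609 and Zdbf2, the nuclear import receptor Tnpo1 and the ubiquitin ligase Rnf217, with log2 fold changes from 0.25 (Zfp609 and Rfx7) to 0.38 (Rnf217). All had an adjusted p of 0.134 and no overlap between groups.

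**Figure D1:**
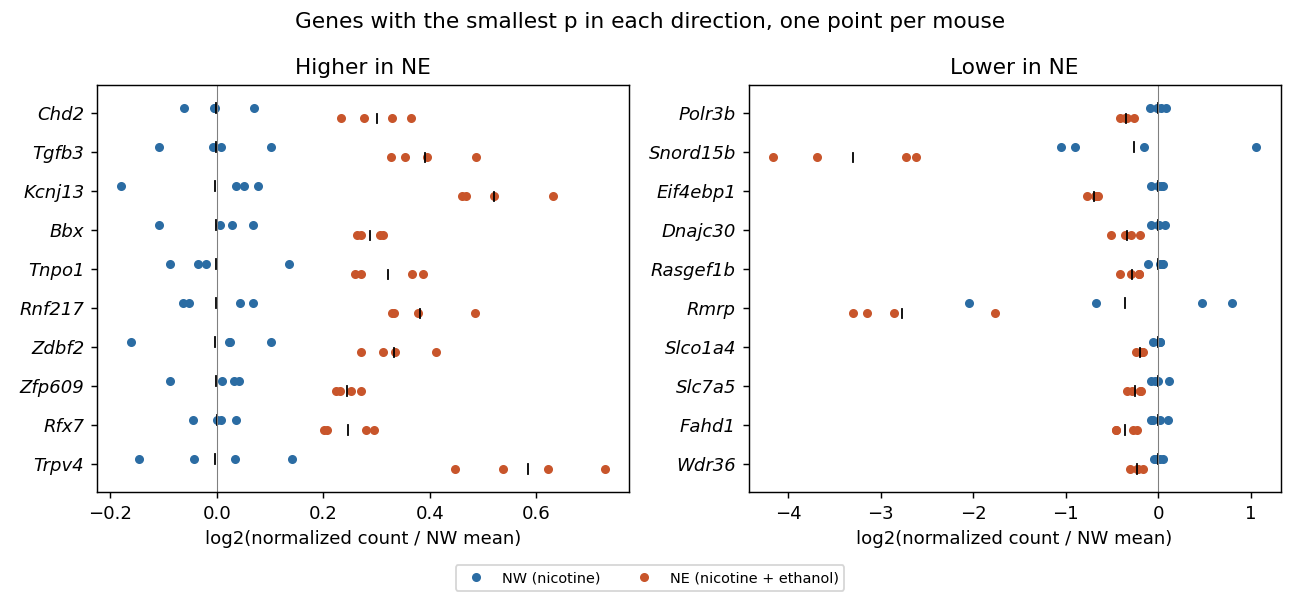
The 10 genes with the smallest p in each direction, with one point per mouse, plotted as log2 of the normalized count over the NW mean, and short black lines are group means of the plotted values. The groups are separate in 19 of the 20 genes, Rmrp being the exception, and the spread of the NW mice is widest for Snord15b and Rmrp.

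Among genes lower in NE, Polr3b, a core subunit of RNA polymerase III, which makes transfer RNA and other small RNAs, had 667.9, 643.3, 592.3 and 623.9 in NW and 472.9, 499.2, 528.0 and 492.5 in NE (log2 fold change -0.34, SE 0.061, adjusted p = 0.134). Eif4ebp1, a repressor of cap-dependent translation controlled by mTOR, had 61.95, 61.04, 56.56 and 59.63 in NW and 35.16, 37.80, 37.28 and 38.13 in NE. The spread within each of these 2 groups was small beside this difference (log2 fold change -0.69, SE 0.137, adjusted p = 0.165; 0.012 to 0.576 over the alternatives). Means of WW and Water-Ethanol, scaled over all 16 mice, were 41.6 (standard deviation 14.7) and 38.7, beside 59.8 in NW and 37.1 in NE as scaled above. NW was thus the group that stood apart by mean, and WW varied more than either. Slc7a5, the large neutral amino acid transporter LAT1, stood at 2446, 2258, 2137 and 2198 in NW and at 1852, 1983, 1791 and 1976 in NE (log2 fold change -0.25, SE 0.054, adjusted p = 0.18). The organic anion transporter Slco1a4 of brain endothelium was lower by a log2 fold change of -0.19 (SE 0.041, adjusted p = 0.179), the exchange factor Rasgef1b by -0.28 (SE 0.058, adjusted p = 0.172), and Dnajc30, Fahd1 and Wdr36 by -0.34, -0.35 and -0.23, none of them with overlapping groups. Dnajc30 overlaps exons of Wbscr22 on the opposite strand and Wdr36 those of 4930455D15Rik, and the strand setting of the counting is not given in the sources used here.

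Snord15b is a C/D box small nucleolar RNA, one of the guides that direct 2'-O-methylation of ribosomal RNA, and lies on chromosome 7 from 99479563 to 99479707 (mm10, minus strand). Its 145 bases, from the GENCODE M21 transcripts, are shown because it had the largest fold change among the genes named here, with the C box (TGATGA) and the D box (CTGA) in capitals.
Snord15b: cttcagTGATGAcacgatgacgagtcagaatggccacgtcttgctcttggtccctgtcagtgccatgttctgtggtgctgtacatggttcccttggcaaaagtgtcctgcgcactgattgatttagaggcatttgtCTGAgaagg

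Snord15b had 35.82, 21.31, 83.18 and 19.27 normalized counts in NW and 6.48, 2.22, 6.05 and 3.09 in NE (log2 fold change -3.06, SE 0.577, adjusted p = 0.165). All NE mice were below all NW mice, and NW mouse 10 was the highest. Rmrp, the RNA of the ribonuclease MRP that cuts precursor ribosomal RNA, had 152.0, 68.79, 190.8 and 26.61 in NW and 11.10, 32.24, 15.11 and 12.37 in NE, with NW mouse 11 below the highest NE mouse (log2 fold change -2.63, SE 0.555, adjusted p = 0.176). Rn45s, given above, had a log2 fold change of -2.11 (SE 0.523, adjusted p = 0.212) from the counts, and limma on log FPKM gave 1.62 to 2.45 in the opposite direction. The FPKM file listed Rn45s at 0 in NW mouse 10, the mouse with the highest count, and at 740.6 to 2433 in the other NW mice and 569.2 to 793.3 in NE. NW mice 10 and 7 were the highest in all of Rn45s, Rmrp and Snord15b. Without NW mouse 10 the log2 fold change was -1.12 for Rn45s, -2.23 for Rmrp and -2.45 for Snord15b. By group means, NW was the group that stood apart. Mean counts of WW and Water-Ethanol, scaled over all 16 mice, were 4.92 and 9.79 for Snord15b, beside 39.9 in NW and 4.46 in NE as scaled above. Those of Rmrp were 24.3 and 22.9, beside 109.5 and 17.7, and those of Rn45s 107986 and 147185, beside 491825 and 114266. The part of poly(A) selection in these differences was not tested.

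Lists of functionally related genes are described below by the number of members at an unadjusted p under 0.05 and by the median log2 fold change, beside 6.97% higher, 4.94% lower and a median of 0.002 over all genes tested. No member of any list passed the adjusted threshold of the main test.

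Genes of osmolyte uptake and cell volume were higher in NE. Of 10 listed, 9 were tested (Akr1b3 had too few reads), 8 had a log2 fold change above 0, 4 were at an unadjusted p under 0.05 and higher, 0 lower, and the median was 0.21. Nfat5, the transcription factor that drives the response to hypertonicity, stood at 4315, 4385, 4912 and 4586 in NW and 5760, 5025, 5594 and 5692 in NE (log2 fold change 0.28, SE 0.056, adjusted p = 0.165). Slc5a3, the sodium/myo-inositol cotransporter and a known NFAT5 target, had 1779, 2192, 2549 and 2897 in NW and 3454, 3098, 3584 and 2992 in NE, with a log2 fold change of 0.48 (SE 0.118, adjusted p = 0.211). In both genes every NE mouse was above every NW mouse. The same was true of the taurine transporter Slc6a6 (5525, 5107, 5938 and 5073 against 6394, 6136, 6388 and 6084; log2 fold change 0.21, SE 0.053, adjusted p = 0.219). Slc38a2, the amino acid transporter SNAT2, had 6082, 6279, 9678 and 9543 in NW and 12208, 11037, 12915 and 9561 in NE, where NE mouse 5 overlapped the upper NW mice (log2 fold change 0.53, SE 0.148, adjusted p = 0.246). Slc5a3 lies within the span of Mrps6 and shares exons with it on the same strand. In the last session NE mice had ethanol and no water for 4 h, and the part of fluid intake in these differences was not tested. Without nicotine the same list had 5 of 9 members higher in Water-Ethanol than in WW at an unadjusted p under 0.05, with a median of 0.14, and Slc38a2 and Slc5a3 passed the adjusted threshold there (adjusted p = 0.0424 and 0.0471, edgeR).

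Insulin and insulin-like growth factor (IGF) signalling controls growth and metabolism through receptor kinases. Of its 20 genes tested, 6 were higher at an unadjusted p under 0.05 and 0 lower, and the median was 0.06. The 6 were the receptors Igf1r, Igf2r and Insr, the adaptors Irs1 and Irs2, which pass the signal from these receptors to kinases, and the transcription factor Foxo6. Irs1 had 1095, 1050, 1165 and 1258 in NW and 1413, 1332, 1363 and 1293 in NE (log2 fold change 0.24, SE 0.061, adjusted p = 0.212). Irs2 had 1359, 1545, 1543 and 1819 in NW and 1991, 1956, 2016 and 1775 in NE, where one NE mouse fell below NW mouse 11 (log2 fold change 0.30, SE 0.077, adjusted p = 0.216). Igf1r was at 3347, 3320, 3551 and 3409 in NW and at 4259, 3584, 4212 and 3824 in NE (log2 fold change 0.22, SE 0.057, adjusted p = 0.219). Igf2r and Insr had log2 fold changes of 0.19 (SE 0.054) and 0.15 (SE 0.051). Irs1, Igf1r, Igf2r and Insr have exon lengths of 8929 to 11978 bases and lie, with Nfat5 and Slc5a3, in the longest decile of genes by exon length, where 19.7% of all genes were at an unadjusted p under 0.05 and the median was 0.055. The part of gene length in these differences was not tested. In Water-Ethanol against WW 3 of the 20 were higher at an unadjusted p under 0.05 and the median was -0.03.

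**Figure D2:**
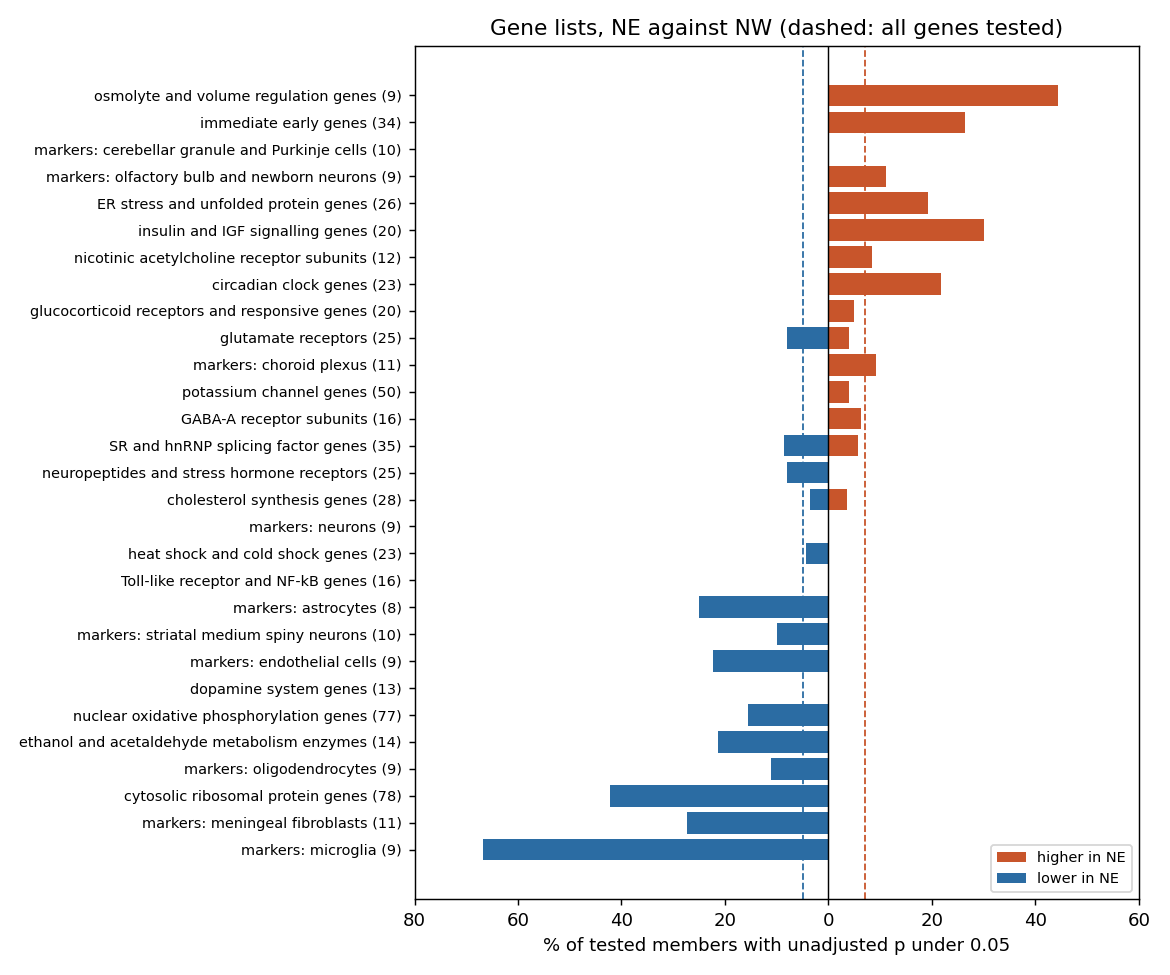
Share of tested members of each list (number in brackets) with an unadjusted p under 0.05 that were higher (right) or lower (left) in NE than in NW, ordered by median log2 fold change, and dashed lines are the shares over all genes tested, 6.97% and 4.94%. Osmolyte genes (4 of 9) are at the top and microglial markers (6 of 9) at the bottom.

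Immediate early genes, which neurons switch on within minutes of activity, were higher on average in NE than in NW. Of 35 listed, 34 were tested, 30 had a log2 fold change above 0, 9 were higher at an unadjusted p under 0.05 and 0 lower, and the median was 0.17. The 9 were Jun, Klf4, Btg2, Sik1, Atf3, Junb, Maff, Ier5 and Dusp6. Jun, an AP-1 transcription factor, had 1712, 1780, 1792 and 1903 in NW and 2151, 2141, 2108 and 1979 in NE, without overlap (log2 fold change 0.22, SE 0.048, adjusted p = 0.185). Klf4, a zinc finger transcription factor, had 204.2, 194.7, 250.7 and 256.9 in NW and 360.9, 257.9, 371.8 and 294.7 in NE (log2 fold change 0.51, SE 0.130, adjusted p = 0.219). Btg2, an antiproliferative cofactor, had 455.9, 328.4, 525.7 and 486.2 in NW and 618.1, 668.1, 671.0 and 476.1 in NE, where NE mouse 5 overlapped NW (log2 fold change 0.44, SE 0.137, adjusted p = 0.268).

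For the classical activity genes the NW mice themselves fell apart. Arc, a synaptic protein gene, was at 3056 and 1267 in NW mice 7 and 8 and at 6167 and 6112 in NW mice 10 and 11, against 5932, 5959, 6947 and 3950 in NE (log2 fold change 0.46, SE 0.362, adjusted p = 0.641). Fos had 672.7 and 383.7 in NW mice 7 and 8, 977.1 and 982.6 in the other two, and 839.8 to 1034 in NE (log2 fold change 0.33, SE 0.215, adjusted p = 0.553). Nr4a1 and Egr2 had the same order, with the lowest value in NW mouse 8. In these genes NW mice 7 and 8 lay below all NE mice, and NW mice 10 and 11 lay within or close to the NE range. Without NW mouse 8 the log2 fold change was 0.16 for Arc and 0.12 for Fos. Means of WW and Water-Ethanol, scaled over all 16 mice, were 5514 and 6141 for Arc, beside 4150 in NW and 5697 in NE as scaled above. Those of Fos were 942 and 936, beside 754 and 950, and those of Nr4a1 2366 and 2440, beside 1898 and 2403. Egr2 had 301 and 298, beside 204 and 281. In these genes NE lay near the water-control mean and NW below it. The paper reports Arc, Fos and Nr4a1 as lower in NW than in WW, from these same mice, so its result is not independent of the means given here. Fosb had a log2 fold change of 0.26. Without NW mouse 10, 18 of the 34 genes were higher at an unadjusted p under 0.05 and the median was 0.24. That mouse had the highest level of the list among the NW mice, so leaving it out widens the difference. Without NW mouse 8, the lowest, the log2 fold change was 0.26 for Junb, 0.29 for Sik1 and 0.26 for Egr2. In the main fit these were 0.45, 0.44 and 0.46. Per mouse, the log2 level of the whole list was -0.25, -0.42, 0.15 and 0.09 in NW and 0.14, 0.15, 0.21 and 0.01 in NE. NW mice 10 and 11 thus lay within the NE range for the list as well. Btg2, Sik1, Junb, Maff, Ier5 and Dusp6, counted above as higher, had NW mice 7 and 8 below all NE mice. In them NW mice 10 and 11 were within or close to the NE range. In Jun, Klf4 and Atf3 all NE mice were above all NW mice. In Water-Ethanol against WW the list had 5 higher and 3 lower members at an unadjusted p under 0.05, with a median of 0.04.

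**Figure D3:**
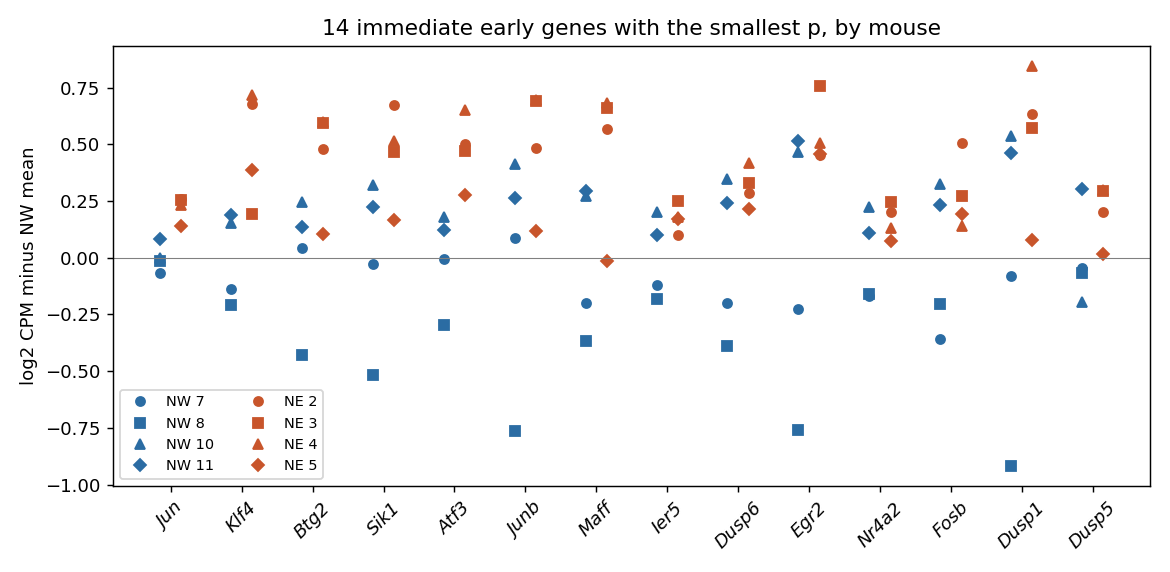
The 14 immediate early genes with the smallest p, as log2 CPM (counts scaled to library size) minus the NW mean, with one symbol per mouse. NW mouse 8 is lowest for most of the genes, NE mouse 5 is often the lowest NE mouse, and in Jun and Atf3 all NE mice are above all NW mice.

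Genes of the endoplasmic reticulum (ER) stress response, which raises chaperones when unfolded protein collects in the ER, were higher in NE for 23 of 26 tested, 5 of them at an unadjusted p under 0.05 and 0 lower, with a median of 0.07. The 5 were the chaperone Hspa5 (BiP), its cochaperones Dnajb9 and Dnajc3, the chaperone partner Sdf2l1 and Herpud1, which serves ER-associated degradation. Hspa5 had 10684, 13486, 14172 and 13058 in NW and 15491, 13853, 14543 and 14117 in NE (log2 fold change 0.17, SE 0.075, adjusted p = 0.387). Dnajb9 had 1248, 1493, 1442 and 1552 in NW and 1748, 1583, 1606 and 1553 in NE (log2 fold change 0.18, SE 0.067, adjusted p = 0.339). NW mouse 7 was the lowest of the 8 mice in all 5 genes, without it the log2 fold change of Hspa5 was 0.094, and without nicotine the list's median was the same, 0.07, with 4 of 26 higher in Water-Ethanol.

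Promoters of the stress and early genes are shown because the regulatory elements of these genes are well known. The sequences are the 250 bases before the RefSeq start site (GRCm38.p6), 5' to 3' on the gene's strand. The ER stress element, CCAAT followed by 9 bases and CCACG, was searched on both strands. It was found in 8 of the 23 ER stress genes with a promoter in the table (34.8%) and in 0.113% of all 32851 promoters. Of these 8 genes only Hspa5 and Dnajc3 were at an unadjusted p under 0.05. Over all genes higher in NE at that level the element was in 2 of 800 (0.25%), beside 0.166% of the tested genes. Its 2 parts are in capitals in Hspa5 (chr2:34771840-34772089, plus strand) and Dnajc3 (chr14:118937682-118937931, plus strand). The cyclic AMP response element TGACGTCA, its own reverse complement, was in 4 of the 25 immediate early genes with a promoter in the table (16%) and in 2.93% of the 11433 tested genes with one. The shorter TGACG, which the full element contains, was in 18 of 25 (72%) and in 29.1% of the tested genes. Counted by promoter, since some genes have several, the full element was in 10.5% of 38 against 2.45% of the promoters of tested genes. The short one was in 55.3% against 24.9%. Btg2 (chr1:134079156-134079405, minus strand) holds the full element and Atf3 (chr1:191183334-191183583, minus strand) the short one on the opposite strand. Over the genes higher in NE at an unadjusted p under 0.05, 3.62% of 800 matched genes held TGACGTCA and 29.5% held TGACG. Over those lower, 2.41% and 31.0% of 580 matched genes held them. Such matches describe letters and no binding was measured.
Hspa5: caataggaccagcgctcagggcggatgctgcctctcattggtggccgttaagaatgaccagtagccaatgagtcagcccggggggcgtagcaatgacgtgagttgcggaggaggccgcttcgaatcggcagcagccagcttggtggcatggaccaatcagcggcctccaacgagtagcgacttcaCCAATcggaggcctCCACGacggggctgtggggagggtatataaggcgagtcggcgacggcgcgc
Dnajc3: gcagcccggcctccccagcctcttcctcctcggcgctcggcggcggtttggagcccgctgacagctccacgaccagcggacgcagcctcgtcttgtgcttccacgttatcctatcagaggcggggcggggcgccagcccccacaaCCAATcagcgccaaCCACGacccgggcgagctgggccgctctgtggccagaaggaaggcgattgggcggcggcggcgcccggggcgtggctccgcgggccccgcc
Btg2: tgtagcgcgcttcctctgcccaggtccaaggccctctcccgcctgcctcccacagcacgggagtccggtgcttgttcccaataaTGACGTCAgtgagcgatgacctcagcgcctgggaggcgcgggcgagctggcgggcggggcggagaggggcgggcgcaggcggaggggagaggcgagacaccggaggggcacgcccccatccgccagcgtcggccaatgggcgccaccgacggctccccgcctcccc
Atf3: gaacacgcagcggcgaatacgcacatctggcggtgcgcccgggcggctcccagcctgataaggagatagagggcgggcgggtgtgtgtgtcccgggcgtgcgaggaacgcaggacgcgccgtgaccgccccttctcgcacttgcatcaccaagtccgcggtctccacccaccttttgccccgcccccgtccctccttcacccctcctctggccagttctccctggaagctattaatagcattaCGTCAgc

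Genes of the protein synthesis and respiration machinery were lower in NE by small amounts. Of 78 cytosolic ribosomal protein genes tested, 76 had a log2 fold change below 0, 33 were lower at an unadjusted p under 0.05 and 0 higher, and the median was -0.10, with a range of -0.16 to 0.02. Rpl9 had 7452, 6998, 7037 and 6930 in NW and 6275, 6583, 6498 and 6233 in NE (log2 fold change -0.15, SE 0.041, adjusted p = 0.244). Rpl37a, at 3063, 2946, 2843 and 2857 against 2512, 2779, 2689 and 2575, was also without overlap (log2 fold change -0.15, SE 0.046, adjusted p = 0.268). Rpl35a and Rpl5 had log2 fold changes of -0.15 and -0.13. Of 77 nuclear genes of oxidative phosphorylation, 75 were below 0, 12 were lower at an unadjusted p under 0.05 and 0 higher, and the median was -0.07. Ndufb9, a subunit of complex I, had 2889, 2920, 2897 and 2914 in NW and 2523, 2820, 2617 and 2558 in NE (log2 fold change -0.14, SE 0.044, adjusted p = 0.268). The groups did not overlap for Cox6b1, a subunit of cytochrome c oxidase, either (log2 fold change -0.13, SE 0.042), and Ndufa9 had -0.13. Many ribosomal protein genes have near-identical pseudogenes, and how such reads were assigned is not given in the sources used here. In Water-Ethanol against WW the medians of the 2 lists were -0.01 and -0.02.

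These 2 lists are made of short genes, and the difference between NE and NW moved with gene length as a whole. Over the decile of genes with the shortest exon length (30 to 1199 bases) the median log2 fold change was -0.064, and over the decile with the longest (6379 bases and more) it was 0.055. In Water-Ethanol against WW the same medians were -0.011 and 0.005. After a GC correction those of NE against NW were -0.067 and 0.050. The 1418 genes under 1200 bases outside both lists had a median of -0.059. Per mouse, the median of the longest decile minus that of the shortest, each gene centred on the 8 mice, was -0.14, -0.08, 0.02 and -0.03 in NW and 0.09, 0.00, 0.07 and 0.07 in NE, so NW mouse 10 and NE mouse 3 overlapped. Genes higher in NE at an unadjusted p under 0.05 had a median exon length of 4354 bases, those lower 2203 and all genes 2942. The part of RNA fragment length or integrity in this was not tested.

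**Figure D4:**
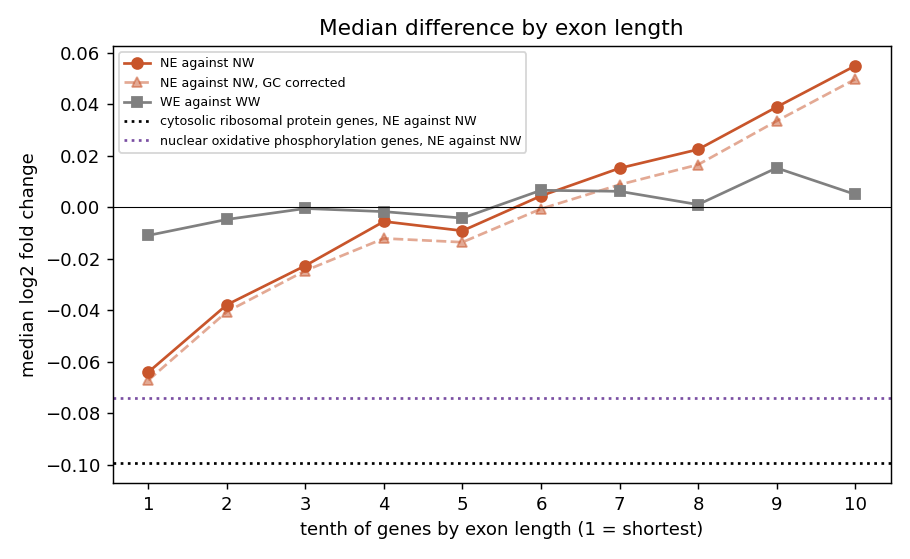
Median log2 fold change in each decile of genes by exon length, for NE against NW with and without a GC correction and for Water-Ethanol against WW, and dotted lines are the medians of the ribosomal protein and oxidative phosphorylation lists. NE against NW runs from -0.064 to 0.055 and Water-Ethanol against WW from -0.011 to 0.005 between the shortest and the longest decile.

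Most markers of microglia, astrocytes, oligodendrocytes, vessels and meninges had log2 fold changes below 0, and in bulk tissue fewer cells of a type and less RNA per cell cannot be told apart. All 9 microglial markers had a log2 fold change below 0, 6 at an unadjusted p under 0.05, with a median of -0.19. The complement gene C1qa had 792.8, 663.7, 795.2 and 820.2 in NW and 611.7, 726.0, 671.0 and 612.1 in NE (log2 fold change -0.23, SE 0.079, adjusted p = 0.298), and the groups overlapped. Trem2, a lipid receptor of microglia, had 189.7, 151.1, 156.4 and 147.7 in NW and 124.0, 152.3, 119.9 and 113.3 in NE (log2 fold change -0.34, SE 0.123, adjusted p = 0.317). C1qb and the fractalkine receptor Cx3cr1 had log2 fold changes of -0.19 (SE 0.074) and -0.14 (SE 0.061). C1qa, C1qb and Trem2 have exon lengths of 1062 to 1146 bases and lie in the shortest decile of genes, where the median was -0.064. Cx3cr1 has 3753 bases, and the median exon length of the microglial list was 1905, beside 2942 over all genes. The part of gene length in these differences was not tested. Summed microglial counts ran from 9162 to 10227 in NW and from 8206 to 10027 in NE. Cd180, a Toll-like receptor homologue of B cells and myeloid cells, had 60.98, 52.32, 51.02 and 63.30 in NW and 13.88, 32.24, 29.22 and 37.10 in NE. That is a log2 fold change of -1.03 (SE 0.237, adjusted p = 0.19) without overlap, beside -1.20 in Water-Ethanol against WW. Among the 16 Toll-like receptor and NF-kB genes tested, 0 were at an unadjusted p under 0.05 in either direction, and Il1b, Il6 and Tnf had too few reads.

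Meningeal fibroblast markers had 3 of 11 lower at an unadjusted p under 0.05 and a median of -0.12, with the collagen gene Col3a1 at 414.3, 337.2, 425.9 and 365.1 in NW and 315.5, 334.6, 276.1 and 315.3 in NE (log2 fold change -0.31, SE 0.091, adjusted p = 0.258). Slc6a13, a GABA transporter of meninges, was at 410.4, 396.3, 356.0 and 355.1 in NW and 330.4, 276.8, 304.3 and 344.2 in NE (log2 fold change -0.27, SE 0.085, adjusted p = 0.268). Of 9 endothelial markers 2 were lower, Slco1a4 and the efflux pump Abcb1a (log2 fold change -0.14, SE 0.043). All 9 oligodendrocyte markers were below 0 with a median of -0.10 and 1 at an unadjusted p under 0.05. Of 8 astrocyte markers 6 were below 0 and 2 were lower at that level, with a median of -0.05. Of 9 neuronal markers 0 were at that level, and their median was -0.01. All 10 cerebellar markers were above 0 with a median of 0.13 and 0 at that level, and without NW mouse 10, the library low in these genes, the median was -0.05.

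Of 12 nicotinic subunits tested, 1 was at an unadjusted p under 0.05. Chrna5, an accessory alpha subunit, had 67.76, 78.48, 74.31 and 77.98 in NW and 99.01, 108.9, 89.67 and 74.19 in NE (log2 fold change 0.31, SE 0.139, adjusted p = 0.4), with overlap. Of 16 GABA-A subunits 1 was higher, the rho subunit Gabrr2 (log2 fold change 0.55, SE 0.198, adjusted p = 0.319), which had 20.0 to 27.5 in NW and 26.8 to 41.3 in NE. Of 25 glutamate receptor genes 1 was higher and 2 were lower. The kainate receptor Grik2 was higher (log2 fold change 0.10, SE 0.040) and its relative Grik1 lower (-0.15, SE 0.060). The metabotropic receptor Grm3 had 2116, 2247, 1994 and 2050 in NW and 1680, 1924, 1798 and 2018 in NE (log2 fold change -0.18, SE 0.061, adjusted p = 0.298). The NMDA receptor subunit Grin2b was at 2887, 4161, 3689 and 3514 in NW and at 3147, 4124, 3605 and 4020 in NE, a log2 fold change of 0.06 (SE 0.104), while in Water-Ethanol against WW it was called lower (-0.41, SE 0.06, adjusted p = 0.0357, edgeR).

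The list for ethanol and acetaldehyde metabolism held alcohol and aldehyde dehydrogenases with other enzymes, and 14 were tested. Of these, 3 were lower and 0 higher at an unadjusted p under 0.05, with a median of -0.07. They were Adh5, the class III alcohol dehydrogenase (log2 fold change -0.19, SE 0.062, adjusted p = 0.279), and the aldehyde dehydrogenases Aldh7a1 (-0.15, SE 0.050) and Aldh1l1 (-0.21, SE 0.076). Aldh1l1 is also a marker of astrocytes, a list with 2 of 8 lower. Aldh2 (-0.03), Aldh1a1 (-0.002), Cat (-0.05), Adh1 (-0.45, SE 0.263) and Cyp2e1 (-0.37, SE 0.333) were not at an unadjusted p under 0.05. Of 25 neuropeptide and stress hormone genes 2 were lower. Penk, the enkephalin precursor, had 5863, 5735, 6029 and 5952 in NW and 4803, 5766, 5246 and 5303 in NE (log2 fold change -0.16, SE 0.053, adjusted p = 0.293). Pmch, the precursor of the appetite peptide melanin-concentrating hormone, had a log2 fold change of -0.22 (SE 0.083, adjusted p = 0.354). The pro-opiomelanocortin gene Pomc was at 50.33, 40.69, 86.51 and 33.95 in NW and 45.34, 23.35, 39.29 and 31.94 in NE (log2 fold change -0.56, SE 0.292, adjusted p = 0.463), highest in NW mouse 10, the library with pituitary transcripts, and without that mouse the log2 fold change was -0.23. Vasopressin (Avp) had a log2 fold change of 0.14 (SE 0.195).

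Clock genes had 5 of 23 higher and 0 lower, with a median of 0.05. Among them were the nuclear receptors Rora (log2 fold change 0.24, SE 0.076, adjusted p = 0.279) and Nr1d2 (0.13, SE 0.044), the transcription factor Clock (0.15, SE 0.054) and the kinase gene Csnk1e (0.11). Rora was lowest in NW mouse 10 (5277), the library low in cerebellar markers, and its log2 fold change ran from 0.16 to 0.30 without one mouse. Of 20 glucocorticoid-responsive genes 1 was higher, the mTOR inhibitor Ddit4 (0.21, SE 0.074, adjusted p = 0.315), and Sgk1 had a log2 fold change of 0.15 (SE 0.139). Of 50 potassium channel genes 2 were higher, Kcnj13 and Kcnc1 (0.17, SE 0.055, also lowest in NW mouse 10, at 9455), and Kcnt1 had 0.11. Of 23 heat and cold shock genes 1 was lower, the cold-inducible Cirbp (-0.27, SE 0.117). Splicing factors had 2 higher and 3 lower of 35, with Srsf12 at 0.28 and Srsf7 at -0.20, cholesterol synthesis genes had 1 and 1 of 28, with Cyp51 at 0.14 and its regulator Srebf1 at -0.15, and dopamine genes had 0 of 13 in either direction. Among 47 tested genes that the study discusses, chosen there on these samples, 3 were higher (Irs2, the cytokine receptor Il20rb at 0.56, SE 0.158, and the neurodevelopmental gene Auts2 at 0.17, SE 0.049) and 2 were lower (Slc6a13 and Grm3).

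The like comparison without nicotine, Water-Ethanol against WW, called 70 of 15323 genes (0.457%) with the same edgeR test, 42 higher and 28 lower. These calls depended on which mice were in the fit. Leaving out any Water-Ethanol mouse, or WW mouse 19 or 20, left 0 or 1 call, and leaving out WW mouse 21 gave 797. All 42 genes called higher in Water-Ethanol had a log2 fold change above 0 in NE against NW, from 0.08 to 1.04, and 26 of them were at an unadjusted p under 0.05. Their median was 0.23 in NE against NW beside 0.34 in Water-Ethanol against WW. A3galt2, a glycosyltransferase gene, was at the top of both, with 26.14, 18.41, 25.51 and 22.02 in NW and 54.60, 38.91, 56.42 and 38.13 in NE (log2 fold change 1.04, SE 0.206, adjusted p = 0.165, beside 1.41, SE 0.27, in Water-Ethanol). Serinc2, which encodes a membrane protein of the serine incorporator family, had 240.1, 216.1, 228.5 and 200.9 in NW and 301.7, 274.6, 319.4 and 286.5 in NE (log2 fold change 0.42, SE 0.085, beside 0.76, SE 0.10). Chd2, Tgfb3, Kcnj13, Zfp609, Furin, Slc5a3 and Slc38a2, described above, also belong to these 42.

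Genes called lower in Water-Ethanol gave another picture. Of 28, 27 were tested in NE against NW, and 15 were below and 12 above 0, with 6 lower at an unadjusted p under 0.05 and a median of -0.01, beside -0.27 in Water-Ethanol against WW. The 6 were Cd180, Actb, Hist1h1c, Grm3, P2ry13 and Gamt. Cav2, a caveolin called lower in Water-Ethanol, had 880.9, 1158, 1120 and 1301 in NW and 1260, 1160, 1176 and 1240 in NE (log2 fold change 0.12, SE 0.093). These lists were chosen on the Water-Ethanol and WW mice, so the sizes in the 2 comparisons are given side by side without a test. Of the 16 genes called in both Water-Ethanol and NE against WW, a list chosen partly on these NE mice, 14 were higher in NE than in NW at an unadjusted p under 0.05 and the median was 0.28, and the exceptions were Cav2 and C1d (log2 fold change -0.01, SE 0.071). Dixdc1, C77080, Car15, Med13l, Samd14 and Pdrg1 of this list had log2 fold changes from 0.12 (Pdrg1) to 0.42 (Car15).

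**Figure D5:**
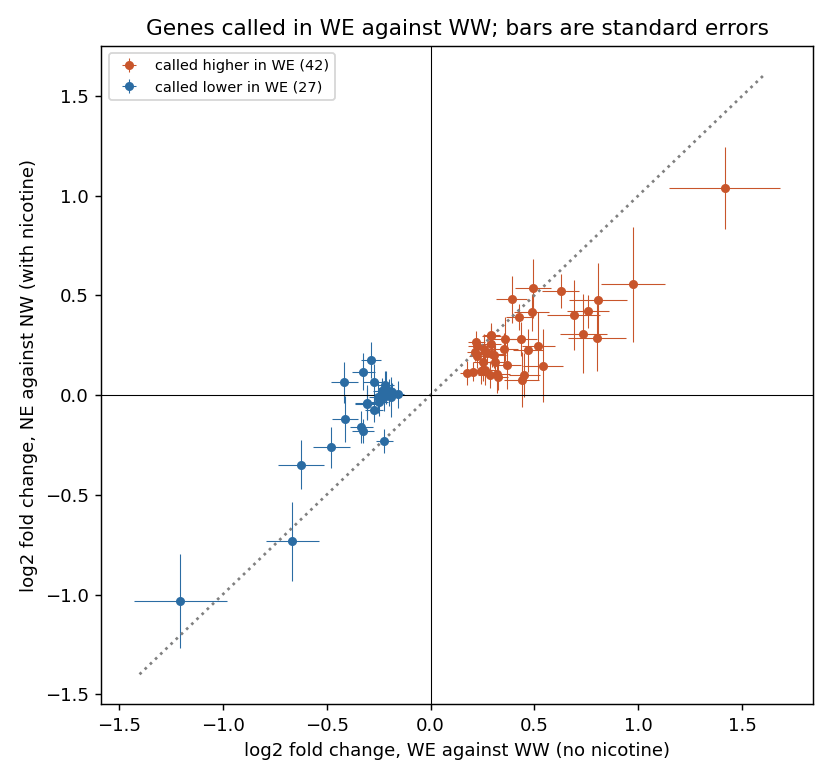
Log2 fold change in NE against NW (vertical) and in Water-Ethanol against WW (horizontal) for the 69 genes called in Water-Ethanol against WW and tested in both, with standard errors, and the dotted line marks equal values. All 42 genes called higher in Water-Ethanol lie above 0 on the vertical axis, and the 27 called lower spread on both sides, 15 below and 12 above.

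Across 15243 genes tested in both comparisons, which are not independent replicates, Pearson's r of the log2 fold changes was 0.319 and Spearman's rho 0.355, and 64.1% of genes had the same sign. Of the 1824 at an unadjusted p under 0.05 in NE against NW, 79.8% had the same sign in Water-Ethanol against WW.

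Whether the ethanol difference itself differed with nicotine was tested as an interaction in all 16 mice. Nicotine and the higher ethanol intake of NE mice cannot be told apart in that test. Of 15592 genes 0 had an adjusted p under 0.05 in edgeR's quasi-likelihood test (smallest 0.577), and 1054 (6.76%) had an unadjusted p under it, while DESeq2 called 1. The smallest unadjusted p was that of Serp1, an ER membrane protein gene, which overlaps Eif2a on the opposite strand and had 1495, 1677, 1626 and 1722 in NW and 1923, 1844, 1820 and 1851 in NE. Its log2 fold change was 0.19 (SE 0.051) with nicotine and -0.12 (SE 0.04) without, and the difference had an unadjusted p of 9.8e-05. Arl5b, a small GTPase gene, had 0.29 (SE 0.066) and -0.08 (SE 0.05), and Sp3, a zinc finger transcription factor gene, 0.20 (SE 0.055) and -0.09 (SE 0.04). For Snord15b, with too few reads in Water-Ethanol and WW to be tested there, the interaction came to -4.05 (SE 0.891), and Atp5sl completed the 5 smallest p-values.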

How the data were processed

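Poly(A) RNA-seq libraries were made from 16 whole brains, cerebellum included, one per mouse, and the NE and NW mice are the subject here. Per the labels, reads were trimmed with Trimmomatic 0.32 and aligned to mm10 with TopHat2. The authors deposited whole read counts per gene without normalization, from a counting program and with a strand setting not given in the sources used here, and FPKM per gene from the Cufflinks tools, scaled to transcript length and library size.

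Counts were normalized with TMM, filtered with edgeR's default filter and tested with edgeR 4.0.16 (quasi-likelihood, R 4.3.3, Benjamini-Hochberg adjustment, threshold 0.05) in a fit of the 4 NE and 4 NW mice. Water-Ethanol against WW was fitted in the same way, and the interaction in all 16 mice. Standard errors are the absolute log2 fold change over the square root of F. Alternatives were RLE factors, DESeq2 1.42.0, edgeR's likelihood-ratio test, no filter or a filter of 100 reads, fits of all 16 mice with and without cerebellar and olfactory bulb scores, a GC correction, limma 3.58.1 on log2(FPKM + 1) or log2(FPKM + 0.1), and leaving out each mouse.

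The genes, lists and tests were chosen with earlier results of these data known. Named genes are the 10 with the smallest p in each direction, the genes of the study and of the 16 called in both ethanol groups, up to 4 members of each list with the smallest p, the 5 smallest interaction p-values and Rn45s. The other members of the immediate early, insulin and ER stress lists that are named, with Csnk1e and further genes called lower in Water-Ethanol, were named after their values were seen. Not every gene of the rule is reported here. In 4 against 4 mice the smallest p of an exact two-sided permutation test is 0.0286, which genes without overlap reach. The paper states that each mouse was housed alone, and the labels do not say whether mice shared preparation days. Total counts per mouse were 27100352 to 32880979.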

Additional observations from a re-analysis of the deposited data

Results flagged for a closer look

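Within a group of 4 mice, one mouse stood far from the other 3 in 5 of 230 groups of values examined by Dixon's criterion, which chance meets in about 1 in 20 groups. For summed cerebellar markers NW mouse 10 had 52393 normalized counts against 85573 to 92265 in the other NW mice. The same mouse had 425.9 for summed pituitary markers against 5.81 to 11.9. Egr2 was at 324.6 in NE mouse 3 and at 262.8 to 273.0 in the other NE mice. Cx3cr1 was at 1248 in NW mouse 8 and at 1363 to 1370 in the other NW mice. Grm4, a glutamate receptor gene of cerebellar granule cells, was at 4895 in NE mouse 5 and at 4161 to 4256 in the other NE mice, and its log2 fold change between NE and NW was 0.18 (SE 0.141). The causes were not tested. By the test of the interaction, no named gene differed in its ethanol difference between nicotine and water mice at an adjusted p under 0.05.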

How the results depend on the processing

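Against 0 calls in the main fit of NE against NW, genes called higher and lower numbered 77 and 16 with DESeq2, 76 and 30 with edgeR's likelihood-ratio test, 47 and 10 in the fit of all 16 mice, and 167 and 45 when cerebellar and olfactory bulb scores were added to it. Limma on log2(FPKM + 1), on log2(FPKM + 0.1) and on log2(FPKM + 1) without a filter called 0 higher and 2, 2 and 1 lower. RLE factors, no filter, a stricter filter and the GC correction each gave 0. Leaving out a mouse gave 0 calls each time, with 1211 (without NE mouse 2) to 2277 (without NW mouse 10) genes at an unadjusted p under 0.05.

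For Water-Ethanol against WW, calls higher and lower were 314 and 262 with DESeq2 and 76 and 67 without a filter, and without one mouse 0 to 458 and 0 to 339, the most without WW mouse 21. For the interaction DESeq2 called 1 gene higher and 0 lower.

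Of 102 named genes 100 kept their direction under every alternative run for them. Leaving out one mouse moved the log2 fold change of 21 by over 1.5 times, among them Arc, Fos, Egr2, Nr4a1, Junb and Sik1 (without NW mouse 8), Hspa5, Dnajb9, Dnajc3 and Cirbp (without NW mouse 7) and Rn45s, Pomc and Grm4 (without NW mouse 10). Rn45s reversed to 1.62, 2.45 and 1.62 in the 3 limma fits of FPKM, and Grin2b to -0.027 without NW mouse 7. The nicotinic median was 0.15 with limma on log2(FPKM + 0.1) and -0.0022 (without NW mouse 11) to 0.082 without one mouse. Without one mouse the glutamate receptor median ran from 0.0083 (without NW mouse 7) to 0.046, the insulin and IGF median from 0.021 (without NW mouse 7) to 0.088, and that of the genes discussed by the study from 0.020 (without NW mouse 7) to 0.081. The Toll-like receptor and NF-kB median, negative in the main fit, was 0.012 with the scores, 0.0094 with log2(FPKM + 1) and 0.026 with log2(FPKM + 0.1). The list of 16 genes called in both ethanol groups had 0.24 with limma on log2(FPKM + 1), with and without the filter. The causes were not tested. No paired analysis was possible because every mouse has its own number and the groups share none.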
